A study of Rattus norvegicus with 30 samples.

Results

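The genes followed here build the axoneme, the microtubule scaffold that drives the beating of the sperm tail. The set was fixed as 42 rat symbols for dynein arms, radial spokes, the central pair, the nexin link, tektins and a few associated flagellar genes, and its members were taken as the rows whose Entrez Gene identifier maps to one of these symbols. Of the 42 symbols, 25 were found among the 17322 genes of the deposited table. The 25 were Dnah1, Dnai1, Dnai2, Dnal1 and Dnali1 of the dynein arms, the arm assembly factors Dnaaf1 and Dnaaf3, Spag6 and Spag16 of the central pair, and Rsph1, Rsph6a and Rsph9 of the radial spokes. They also included Drc1, Drc3, Ccdc39 and Ccdc40 of the nexin link and its ruler, the tektins Tekt1 to Tekt5, the ropporins Ropn1 and Ropn1l, Meig1 and the transcription factor Foxj1. The other 17 symbols (Dnah2, Dnah3, Dnah5, Dnah6, Dnah7, Dnah8, Dnah9, Dnah10, Dnah11, Dnah12, Dnah17, Spag17, Rsph4a, Hydin, Cfap43, Cfap44 and Cfap58) were not analysed here, so a single dynein heavy chain, Dnah1, is described.

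In an axoneme, a ring of doublet microtubules surrounds a central pair, and dynein arms fixed to each doublet walk along its neighbour. Radial spokes and the nexin-dynein regulatory complex control this sliding, a ruler made of CCDC39 and CCDC40 sets the spacing of the arms and spokes, and tektins run as filaments inside the doublets. Arms are first assembled in the cytoplasm by dedicated factors, and in the testis the flagellum is built in round and elongating spermatids, while many of its transcripts already appear in spermatocytes. FOXJ1 and the RFX factors are known as transcriptional regulators of motile cilia genes.

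Whole testes of Wistar Han rats were taken on postnatal days 8.5 and 14.5, then 24.5 and 30.5, and finally 36.5 and 53.5 (days postpartum, dpp). Explants cut from 8.5 dpp testes were kept in culture over 6 (D6), 16 (D16), 22 (D22) or 28 days (D28). Each group had 3 libraries, except 14.5 dpp with 2, because the third library of this age is listed at 0 for all genes. The explants lay on agarose at the gas-liquid interface in αMEM with serum replacement, retinol and vitamin E, and each cultured library pooled 12 explants, so that its replicates are pools and not single animals. In age, D6 matches 14.5 dpp, D16 matches 24.5 dpp, D22 matches 30.5 dpp and D28 matches 36.5 dpp. The testes were untreated, while all explants received retinol and vitamin E, and the necrotic centre of the explants was removed. The titles of the testis samples give the age in days post conception whereas their age field gives postnatal days, and the latter was used.

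The values are FPKM, that is fragments normalized to transcript length and to the mapped total of the library, and the counts behind them are unknown, so no counting interval can be given. A value of 0 was not always an absence of transcript. Hprt1 and Ppia, which every cell uses, were listed at 0 in all 29 libraries and Rbbp4 in 14 of them. Among the axoneme genes, Dnal1 was listed at 0 in all 29 libraries. Rsph1 was above 0 in 3 libraries only, with 2.84 FPKM in replicate 3 of 24.5 dpp, 11 FPKM in replicate 1 of 30.5 dpp and 7.23 FPKM in replicate 1 of 36.5 dpp. Neither gene could therefore be tested, and Spag6, which has a near copy, Spag6l, with which reads may be shared, is uncertain as well. Sycp3 and Prm1 fitted the labels of the testes. Sycp3, a synaptonemal complex gene of spermatocytes, was between 460 and 475 FPKM at 24.5 dpp. Prm1, a protamine of elongating spermatids, was listed at 0 up to 24.5 dpp and reached 3872 to 5511 FPKM at 53.5 dpp. The 14.5 dpp testes were not alike, with Sycp3 at 6.17 FPKM in replicate 1 and 38.4 FPKM in replicate 2. Other markers of elongating spermatids went against the age of replicate 2, with Tnp1 at 13.1, Tnp2 at 9.47, Odf1 at 4.18 and Prm2 at 2.40 FPKM. In replicate 1 they were at 0, 1.11, 1.77 and 0.328 FPKM, and the source of these transcripts was not tested.

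Promoter sequences were available for 20 of the 25 genes, as RefSeq windows of the GRCr8 build from 250 bases before to 50 bases after the start of the gene; Dnaaf1, Spag16, Rsph1, Tekt5 and Foxj1 had none. They were searched on both strands for the X-box core bound by RFX factors (GTTNCCAT), a forkhead site (GTAAACA) and a cAMP response element (TGACGTNA). The X-box core in this spelling was present in 2 of the 20 promoters (10%, against 4.7% of 33469 rat promoters), the forkhead site in 2 (10%, against 3.78%) and the cAMP response element in 1 (5%, against 3.25%). Only these exact spellings were counted, so a promoter without a match may still hold a site spelled otherwise. The promoters of Dnai2 and Tekt2, for example, hold the letters gttgctaggcaac, which the search for the X-box core could not count. The 4 promoters with a match are shown because they are the ones in which these letters could be read, with the matches in capitals. Tekt1 (chr10:57479072-57479371, minus strand) holds an X-box core beginning 39 bases before the start. Dnali1 (chr5:142611921-142612220, minus strand) holds an X-box core 69 bases and a reversed forkhead site 185 bases before it. Tekt3 (chr10:48228609-48228908, plus strand) holds a reversed forkhead site 184 bases before the start, and Spag6 (chr17:86261825-86262124, plus strand) a cAMP response element 144 bases before it, which reads the same on both strands. No match overlapped a match of another motif, and a match is only a description of the letters.
Tekt1: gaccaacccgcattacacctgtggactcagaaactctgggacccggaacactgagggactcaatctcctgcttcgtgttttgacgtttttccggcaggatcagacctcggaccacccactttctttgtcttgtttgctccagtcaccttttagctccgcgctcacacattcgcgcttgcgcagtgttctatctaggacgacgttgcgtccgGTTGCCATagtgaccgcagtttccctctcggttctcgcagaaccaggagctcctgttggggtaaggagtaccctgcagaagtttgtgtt
Dnali1: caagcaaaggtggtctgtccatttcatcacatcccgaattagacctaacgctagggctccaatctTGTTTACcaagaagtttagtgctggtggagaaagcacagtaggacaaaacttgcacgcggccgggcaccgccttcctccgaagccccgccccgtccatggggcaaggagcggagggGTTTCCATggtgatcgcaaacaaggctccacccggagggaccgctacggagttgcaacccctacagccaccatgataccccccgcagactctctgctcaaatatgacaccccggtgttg
Tekt3: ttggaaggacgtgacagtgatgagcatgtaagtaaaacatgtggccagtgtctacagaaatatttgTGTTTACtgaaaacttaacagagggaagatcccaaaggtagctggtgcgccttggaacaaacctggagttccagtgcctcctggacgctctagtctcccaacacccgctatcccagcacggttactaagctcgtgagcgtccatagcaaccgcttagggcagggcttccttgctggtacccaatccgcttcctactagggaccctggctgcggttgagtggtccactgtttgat
Spag6: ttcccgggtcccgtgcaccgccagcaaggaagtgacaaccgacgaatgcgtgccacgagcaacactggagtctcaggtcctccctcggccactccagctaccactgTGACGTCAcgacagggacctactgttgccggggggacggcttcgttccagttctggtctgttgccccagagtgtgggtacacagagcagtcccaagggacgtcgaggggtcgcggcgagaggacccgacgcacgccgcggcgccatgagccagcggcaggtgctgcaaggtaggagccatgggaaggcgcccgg

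In the juvenile testis most axoneme genes were near 0, and they appeared between 14.5 and 24.5 dpp. The 25 genes together took 0.00413% to 0.00464% of the summed FPKM of an 8.5 dpp library and 0.00685% and 0.0108% of the 14.5 dpp libraries. Their share was 0.195% to 0.36% at 24.5 dpp and 0.921% to 1.2% in the 9 libraries from 30.5 dpp on. Much of it came from Dnaaf1 and Ropn1l, which made up 54.8% to 56.6% of the summed level of the 25 genes at 24.5 dpp. These genes made up 47.2% to 53.8% of it at 30.5 dpp and 38.3% to 48.8% at 53.5 dpp. In whole tissue, more cells of a type and more RNA per cell cannot be told apart. The lowest 24.5 dpp library was replicate 3, which held the lowest value of that age for 19 of the 25 genes.

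**Figure D1:**
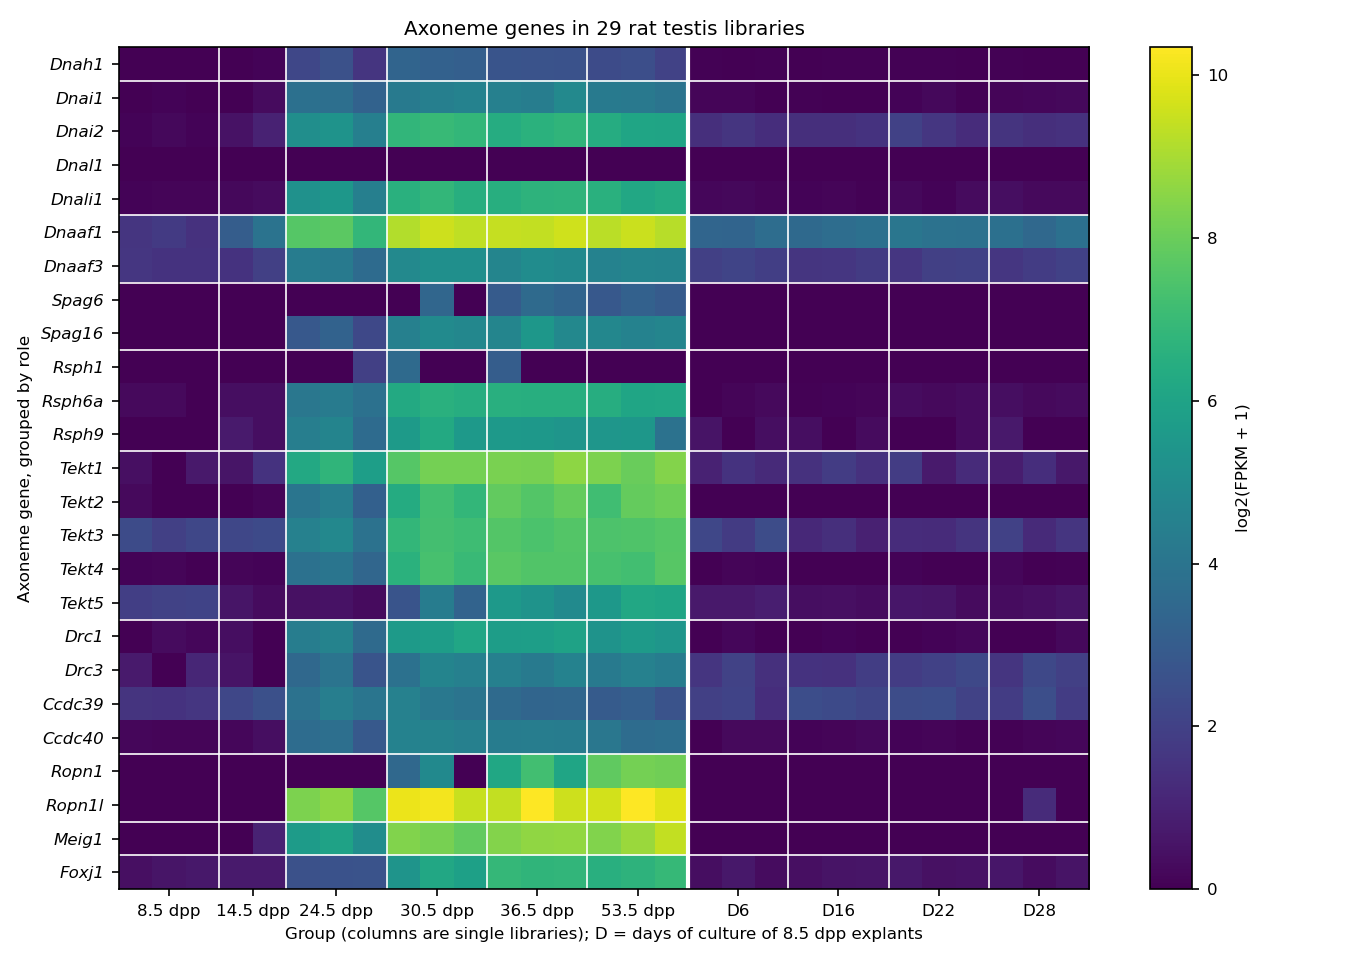
Levels of the 25 axoneme genes in each of the 29 libraries as log2(FPKM + 1), with genes grouped by role (rows) and libraries grouped by age in vivo and by days of culture (columns). Dark columns at 8.5 and 14.5 dpp give way to bright ones from 24.5 dpp, whereas the 12 cultured libraries at the right stay dark except for a few rows such as Dnaaf1.

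Which axoneme genes had begun to change before this onset was asked by comparing 14.5 with 8.5 dpp. Groups were compared with limma on log2(FPKM + 1), a scale that understates the change of low genes, and calls required a Benjamini-Hochberg adjusted p-value no higher than 0.05, taken over all tested genes, and group medians that differed 2-fold or more. The test was limited to genes whose median reached 0.5 FPKM in either group, which left 10 of the 25 (3 through 14.5 dpp only and 2 through 8.5 dpp only). Of these, 3 were called higher, against 8.83% of all tested genes, and 1 was called lower, against 6.89%. Dnaaf1, a factor for the assembly of dynein arms in the cytoplasm, had 2.04, 2.40 and 1.81 FPKM at 8.5 dpp and 7.18 and 14.4 FPKM at 14.5 dpp. It rose by 1.87 ± 0.28 (SE) on the log2 scale (limma, adjusted p = 0.0071). Ccdc39, which forms the ruler with CCDC40, had 1.95, 1.84 and 2.09 FPKM and then 3.65 and 4.70 FPKM, a rise of 0.80 ± 0.12 (adjusted p = 0.00753). Dnai2, an intermediate chain of the outer arm, had 0.0776, 0.157 and 0.0779 FPKM and then 0.405 and 0.969 FPKM (adjusted p = 0.0342). The call of Dnai2 was lost without any single 8.5 dpp library or without replicate 2 of 14.5 dpp (and that of Ccdc39 without the latter or after a median-of-ratios rescaling).

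Tekt5 went the other way. This tektin had 2.83, 3.06 and 3.18 FPKM at 8.5 dpp, and 0.481 and 0.245 FPKM at 14.5 dpp. It fell by 1.57 ± 0.12 on the log2 scale between these ages (limma, adjusted p = 0.0029), and all 3 younger testes lay above both older ones. It was still at 0.378, 0.411 and 0.235 FPKM at 24.5 dpp, before its late increase described with the other tektins.

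Between 14.5 and 24.5 dpp, 20 of the 25 genes were called higher and none lower, against 14.6% of all tested genes called higher. Of these 20, 12 reached the median of 0.5 FPKM through 24.5 dpp alone and so could enter the test only by being high at that age. The 5 genes not tested were Dnal1, Rsph1, Spag6, Tekt5 and Ropn1. For each of the 20 called genes every 24.5 dpp library was above both 14.5 dpp libraries, replicate 3 included, and all 20 calls were also made without any single library. The share of all genes that separate in this way was not counted.

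The 3 genes with the largest called rises were Ropn1l, Tekt1 and Meig1. Ropn1l, a ropporin-like protein of the radial spokes that binds to anchoring proteins of the cAMP-dependent kinase, was listed at 0 in every 8.5 and 14.5 dpp library. Its values were 312, 382 and 197 FPKM at 24.5 dpp (limma against 14.5 dpp, adjusted p = 0.000178). Its levels after this age, 704 to 1153 FPKM at 30.5 dpp, 676 to 1296 FPKM at 36.5 dpp and 788 to 1304 FPKM at 53.5 dpp, overlapped each other. Meig1, which is needed for the manchette of elongating spermatids, was at 0 in 4 of the 5 libraries up to 14.5 dpp. It was at 1 FPKM in replicate 2 of 14.5 dpp, the same testis that had more Sycp3 and Tnp1. It reached 50.9, 60.7 and 32.3 FPKM at 24.5 dpp (adjusted p = 0.000443), 229 to 330.5 FPKM at 30.5 dpp, 342 to 409 FPKM at 36.5 dpp and 334 to 666 FPKM at 53.5 dpp.

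Of the 5 dynein arm genes, 4 rose between 14.5 and 24.5 dpp and Dnal1 was not tested. Dnah1, an inner-arm heavy chain, had at most 0.0711 FPKM up to 14.5 dpp and 3.63, 4.89 and 2.05 FPKM at 24.5 dpp (2.06 ± 0.28 on the log2 scale, limma, adjusted p = 0.00278). Dnai1, the partner intermediate chain of Dnai2, rose by 3.46 ± 0.22 (adjusted p = 0.00032) to 13.0, 12.6 and 8.47 FPKM. The light intermediate chain of the inner arms, Dnali1, rose by 4.81 ± 0.30 (adjusted p = 0.000305) to 37.0, 43.8 and 21.4 FPKM. Of the assembly factors, Dnaaf1 was the most abundant arm-related gene at 24.5 dpp, with 194, 215 and 115 FPKM, and Dnaaf3 had 19.4, 18.4 and 11.3 FPKM.

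Of the spoke, link and ruler genes, all but the untested Rsph1 were called higher at 24.5 dpp. Rsph6a, the spoke head protein of the sperm tail, rose by 3.68 ± 0.17 on the log2 scale (limma, adjusted p = 0.00021) to 13.4 to 18.7 FPKM, and Rsph9, another spoke head protein, to 11.4 to 24.6 FPKM (adjusted p = 0.00083). Drc1, which anchors the nexin link to the doublet, rose by 4.00 ± 0.34 (adjusted p = 0.000664). Ccdc40 and its partner Ccdc39 differed in their starting levels, at 0.103 to 0.29 FPKM and 1.84 to 4.70 FPKM respectively up to 14.5 dpp. At 24.5 dpp they were closer, with 6.38 to 12.8 FPKM of Ccdc40 and 13.7 to 20.8 FPKM of Ccdc39. Spag16, a central pair protein, was at 0 in all libraries up to 14.5 dpp and had 6.28, 8.52 and 3.75 FPKM at 24.5 dpp.

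The second step, from 24.5 to 30.5 dpp, divided the axoneme genes. Calls of a higher level were made for 17 of the 25 genes and lower for none, against 13.5% of all tested genes called higher, and of the 22 tested genes 2 passed the filter through 30.5 dpp only. Ccdc39 was already at 92.4% of its highest age mean at 24.5 dpp and differed by 0.11 ± 0.21 on the log2 scale (limma, adjusted p = 0.661). Dnai1, Dnaaf3 and Ccdc40, at 49.1%, 50.2% and 45% of their highest mean at 24.5 dpp, were higher at 30.5 dpp with adjusted p-values of 0.00615, 0.00527 and 0.00456 but with medians less than 2-fold apart. After a median-of-ratios rescaling of the libraries these 3 were called too, and the median of all tested genes was -0.39 on the deposited scale and 0.02 after rescaling. The call of Drc3 (0.96 ± 0.35, adjusted p = 0.042) was lost with a pseudocount of 0.1 or without replicate 1 or 3 of 24.5 dpp or replicate 2 or 3 of 30.5 dpp, and that of Dnah1 without replicate 3 of 24.5 dpp. The largest rises in this interval with values above 0 in every library belonged to Tekt4 (3.21 ± 0.23, adjusted p = 0.000113), Foxj1 (3.20 ± 0.22, adjusted p = 9.1e-05) and Tekt5 (3.02 ± 0.38, adjusted p = 0.000823).

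**Figure D2:**
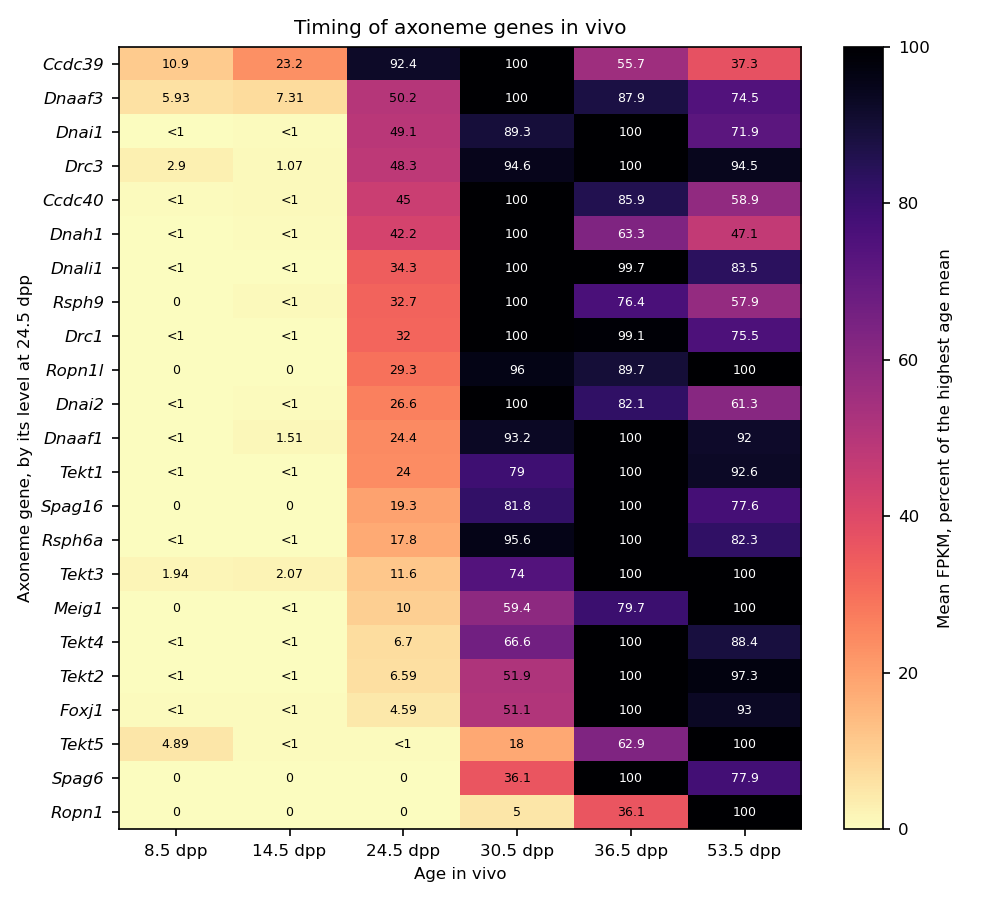
Mean FPKM of 23 axoneme genes at each age in vivo as a percent of the highest age mean of that gene, with genes ordered by their level at 24.5 dpp (Dnal1 and Rsph1 are left out). Ccdc39 heads the order with 92.4% at 24.5 dpp, while Tekt4, Tekt2, Foxj1, Tekt5, Spag6 and Ropn1 at the foot were below 7% at that age.

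Foxj1 came late. It encodes the forkhead factor best known for switching on motile cilia genes, and it had 0.331 to 0.593 FPKM at 8.5 dpp and 0.674 and 0.69 FPKM at 14.5 dpp. At 24.5 dpp it had 4.94, 5.17 and 5.35 FPKM, which was 4.59% of its highest mean, although 19 other axoneme genes were called higher at the same age. It then had 40.0, 73.4 and 58.7 FPKM at 30.5 dpp and 117, 108 and 112 FPKM at 36.5 dpp. The groups of these 3 ages did not overlap, but the last step missed the 2-fold limit (1.0 ± 0.21, limma, adjusted p = 0.0208). At 53.5 dpp it had 91.7, 102 and 120 FPKM, which overlapped the values of 36.5 dpp (limma, adjusted p = 0.448).

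The tektins did not share one schedule. Tekt1, a tektin of motile cilia and flagella alike, had 0 to 1.87 FPKM up to 14.5 dpp, 75.3, 108 and 54.3 FPKM at 24.5 dpp and 196, 292 and 294 FPKM at 30.5 dpp. Its later values, 302 to 384 FPKM at 36.5 dpp and 253 to 345 FPKM at 53.5 dpp, were not called different from the age before. Tekt3 had the highest mean of the tektins at 8.5 dpp (4.15, 2.88 and 3.62 FPKM), where Tekt5 overlapped it, and the highest values at 14.5 dpp (3.54 and 4.02 FPKM). It rose to 22.6, 27.1 and 14 FPKM at 24.5 dpp (2.17 ± 0.28 on the log2 scale, limma, adjusted p = 0.00232) and to 114, 152 and 141 FPKM at 30.5 dpp.

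Tekt2 and Tekt4 moved as a later pair. Tekt2 had 15.3, 20.6 and 8.02 FPKM at 24.5 dpp, 82.6, 148 and 115 FPKM at 30.5 dpp and 233, 192 and 241 FPKM at 36.5 dpp. Tekt4 had 13.7, 15.2 and 9.81 FPKM, 96.4, 159 and 129 FPKM, and 209, 183 and 186 FPKM at the same ages. At 24.5 dpp the means of these genes were 6.59% and 6.7% of their highest mean, compared with 24% for Tekt1 and 11.6% for Tekt3.

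Tekt5 and Ropn1 reached their highest mean at 53.5 dpp. Tekt5 had 5.46, 19.3 and 8.75 FPKM at 30.5 dpp, 47.3, 39.2 and 30.3 FPKM at 36.5 dpp and 45.1, 72.7 and 67.7 FPKM at 53.5 dpp. Ropn1, the ropporin of the sperm fibrous sheath, was listed at 0 in all libraries up to 24.5 dpp, and its 30.5 dpp libraries held 10.3, 29.2 and 0 FPKM. It had 70.1, 149 and 66.1 FPKM at 36.5 dpp and 225, 293 and 273 FPKM at 53.5 dpp, with every library of the older age above every library of the younger. Its paralogue Ropn1l was thus detected a sampling age earlier and at 96% of its highest mean at 30.5 dpp, when Ropn1 stood at 5%.

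**Figure D3:**
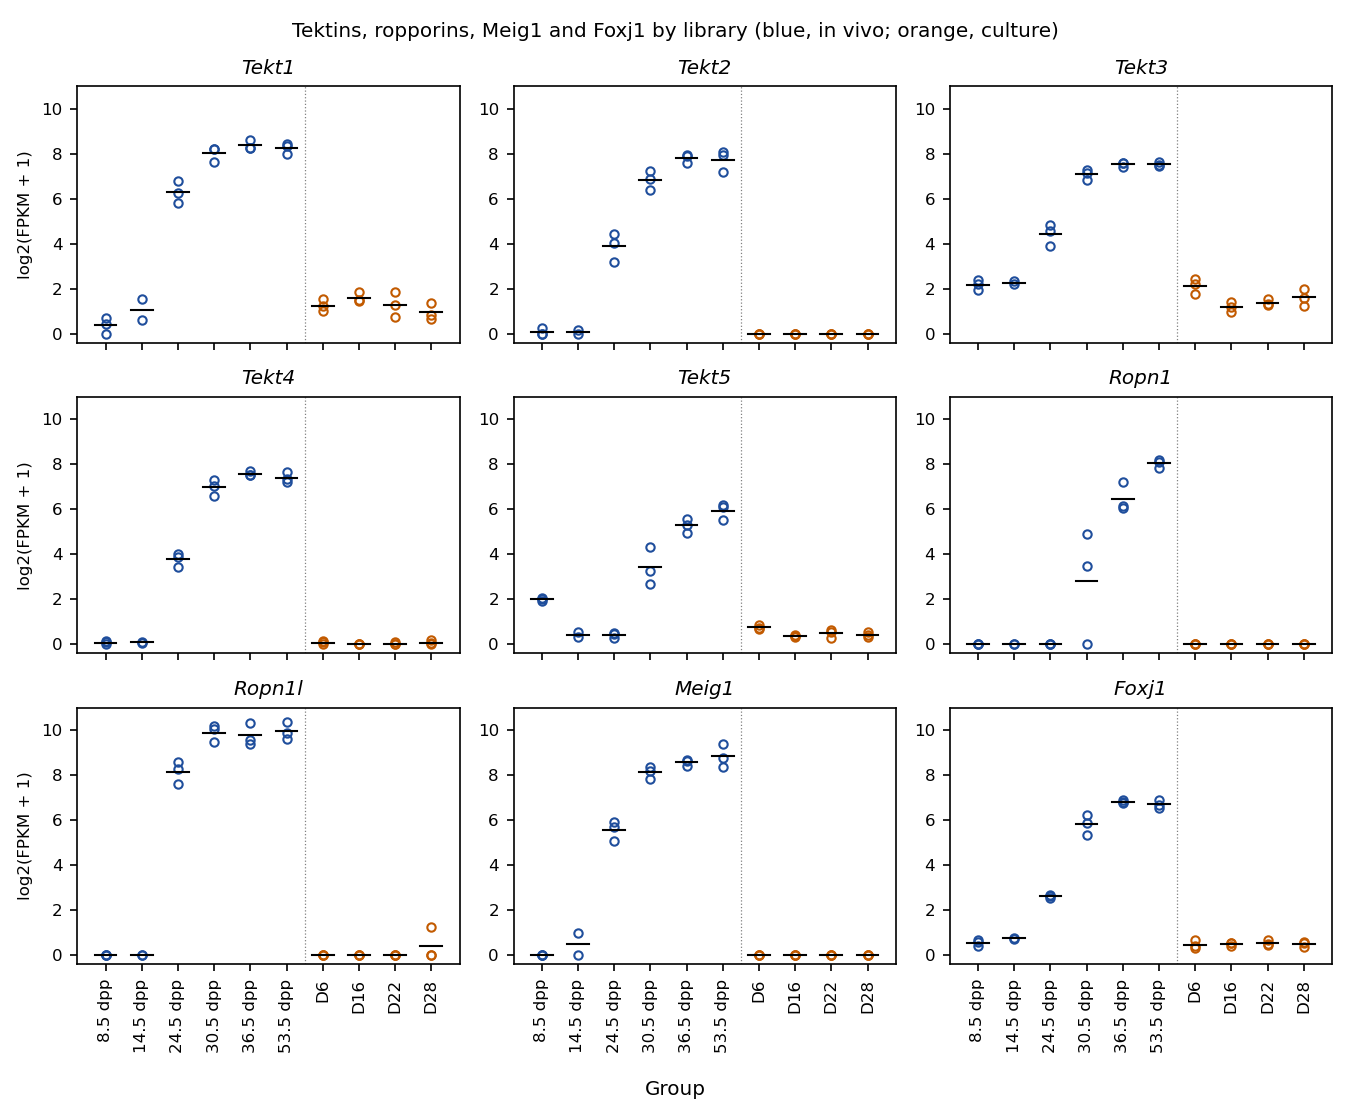
Levels of the 5 tektins, both ropporins, Meig1 and Foxj1 in each library as log2(FPKM + 1), by age in vivo (blue circles) and days of culture (orange circles), with the mean of each group as a black bar. Tekt1 and Ropn1l climb at 24.5 dpp, Foxj1, Tekt2 and Tekt4 mainly at 30.5 dpp and Tekt5 and Ropn1 at 30.5 to 53.5 dpp, while cultured libraries remain under 2.5 on this scale.

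After 30.5 dpp few calls were made. Between 30.5 and 36.5 dpp, 2 of the 25 genes were called higher, Tekt2 (0.97 ± 0.22 on the log2 scale, limma, adjusted p = 0.0233) and Tekt5 (1.86 ± 0.40, adjusted p = 0.0217), against 6.33% of all tested genes. This count was 0 without replicate 3 of 30.5 dpp or without any of the 36.5 dpp libraries, 1 without replicate 1 of 30.5 dpp and 5 without replicate 2 of 30.5 dpp. Between 36.5 and 53.5 dpp, 1 gene was called higher, Ropn1 (1.56 ± 0.31, adjusted p = 0.00938), against 2.88% of all tested genes. No axoneme gene was called lower at either step. Ccdc39 had 22.4, 16.8 and 14.8 FPKM at 30.5 dpp, 10.9, 9.50 and 9.68 FPKM at 36.5 dpp and 6.95, 7.87 and 5.35 FPKM at 53.5 dpp. These groups did not overlap on the deposited scale, and both steps had adjusted p-values under the threshold (0.0202 and 0.0224) while the medians were less than 2-fold apart. At 53.5 dpp Ccdc39 was at 37.3%, Dnah1 at 47.1%, Rsph9 at 57.9% and Ccdc40 at 58.9% of their highest mean, whereas Tekt1 to Tekt4 remained at 88.4% or more. These percentages are on the deposited scale and were not computed after rescaling. The median-of-ratios rescaling divides by 0.758 to 0.86 at 30.5 dpp and by 0.508 to 0.521 at 53.5 dpp, so it raises the older age more. The median difference of the 23 tested genes at this last step was -0.22 on the deposited scale, beside -0.30 for all tested genes, and 0.15 after rescaling, so that its sign depends on the scale.

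Whether explants gained these transcripts was asked by comparing each culture time with the testis of matched age. At D16, 20 of the 25 genes were called lower than at 24.5 dpp and none higher, against 18.3% of all tested genes called lower. At D22 it was 22 genes against 30.5 dpp (22.9% of all tested genes), and at D28 it was 23 genes against 36.5 dpp (23.6%). Of these genes, 13 of 20 at D16, 15 of 22 at D22 and 16 of 23 at D28 passed the filter through the testis only, and these could only have been lower in the explants. The genes left over at D28 were Dnal1 and Rsph1, which were not tested. The D22 count includes Ropn1, whose call rested on 2 libraries above 0 at 30.5 dpp (adjusted p = 0.0484) and was lost without either of them. The axoneme genes took 0.00795% to 0.0109% of the summed FPKM in the 12 cultured libraries. Dnaaf1 and Ropn1l made up 33.4% to 47.6% of this share.

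The size of the deficit differed between genes. Spag6, Spag16, Tekt2, Ropn1 and Meig1 were listed at 0 in all 12 cultured libraries, while their means at 36.5 dpp were 9.02, 32.0, 222, 95.2 and 383 FPKM. Ropn1l was listed at 0 in 11 of the 12 and at 1.39 FPKM in replicate 2 of D28. That replicate also held the most Sycp3 of its group, with 19.6 FPKM beside 8.96 and 9.97 FPKM, and whether the 2 observations are linked was not tested. Among the genes above 0 in every D28 library, the mean at 36.5 dpp was 421-fold higher than at D28 for Dnali1, 366-fold for Rsph6a, 338-fold for Tekt1, 269-fold for Foxj1, 223-fold for Ccdc40 and 180-fold for Dnah1. The D28 means of these genes ran from 0.0293 FPKM (Dnah1) to 0.977 FPKM (Tekt1), so that the folds rest on low values and their order is uncertain. The smallest folds were those of Ccdc39 (3.09), Drc3 (7.23) and Dnaaf3 (11.1).

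**Figure D4:**
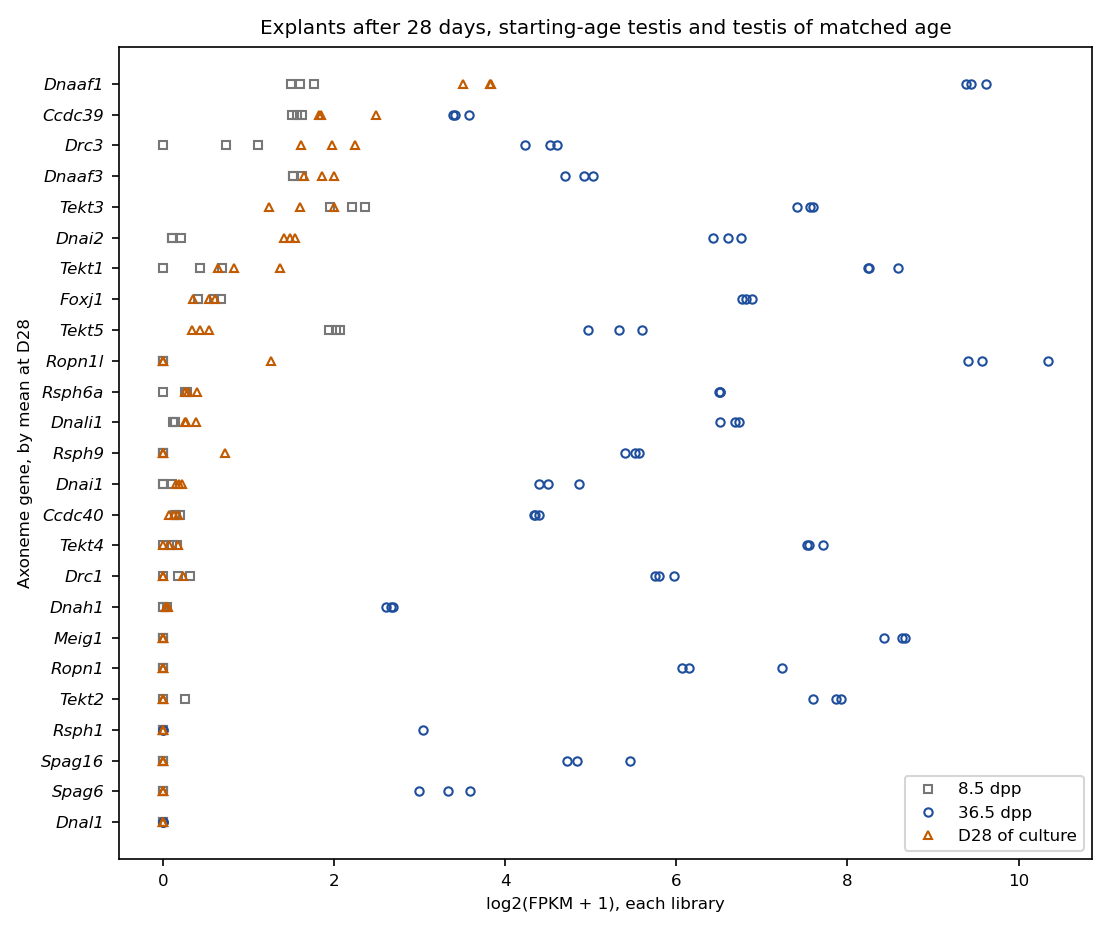
Levels of the 25 axoneme genes as log2(FPKM + 1) in each library of D28 explants (triangles), of 8.5 dpp testes, the age at which explants were cut (squares), and of 36.5 dpp testes of matched age (circles), with genes ordered by their mean at D28. Triangles lie with or near the squares for most genes and to the left of all circles for 23 genes. All triangles lie to the right of all squares for 7 genes, of which Dnaaf1, Dnai2 and Drc3 were called higher, and to the left for Tekt5. The share of all genes that separate in these ways was not counted.

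The 3 axoneme genes with the highest mean at D28 were Dnaaf1, Ccdc39 and Drc3. Dnaaf1 had 9.29, 9.07 and 11.9 FPKM at D6, 10.7, 11.9 and 13.1 FPKM at D16, 15.6, 13.9 and 13.7 FPKM at D22 and 13.3, 10.4 and 13.1 FPKM at D28. All 12 values lay above the 8.5 dpp testes and below the lowest 24.5 dpp testis, and they overlapped those of 14.5 dpp. Ccdc39 had 2.95, 3.23 and 1.58 FPKM at D6, 4.40, 4.07 and 3.45 FPKM at D16, 4.34, 4.43 and 3.08 FPKM at D22 and 2.55, 4.62 and 2.58 FPKM at D28, in the range of the 8.5 and 14.5 dpp testes but for the lowest D6 value. Drc3, a subunit of the nexin-dynein regulatory complex, had 2.01, 3.10 and 1.73 FPKM at D6, 1.84, 1.77 and 2.68 FPKM at D16, 2.54, 3.05 and 3.69 FPKM at D22 and 2.05, 3.72 and 2.94 FPKM at D28. Its testes had 0.664, 0 and 1.16 FPKM at 8.5 dpp and 0.45 and 0 FPKM at 14.5 dpp, so that every explant exceeded every juvenile testis.

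Compared with the 14.5 dpp testis, in which the first spermatocytes are present, 2 genes were called higher at D6, against 5.57% of all tested genes. The filter left 10 of the 25 (2 through D6 only and 2 through 14.5 dpp only). The genes called were Drc3 (1.42 ± 0.24 on the log2 scale, limma, adjusted p = 0.0171) and Dnai2 (0.71 ± 0.18, adjusted p = 0.0481). Neither was called without replicate 1 of D6, and 1 of the 2 was lost without any other single library. Drc3 had a median of 0.225 FPKM at 14.5 dpp. Here and in the next fit it passed the filter through the explants only, so that it could only have been called higher. In a fit of D16, D22, D28 and 14.5 dpp with an F test, the same 2 genes were called higher at D16 (6.56% of all tested genes), D22 (7.35%) and D28 (7.64%), with 9 of the 25 tested. For Drc3 the differences were 1.35, 1.76 and 1.67, each with an SE of 0.22, and for Dnai2 they were 0.70, 0.91 and 0.75, each with an SE of 0.20. Dnai2 had 1.46 to 3.06 FPKM in the 12 explant libraries, above all 5 juvenile testes, but its calls at D16, D22 and D28 were lost without replicate 1 of 14.5 dpp.

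Tekt3 was the gene called lower than at 14.5 dpp at D16 (5.35% of all tested genes) and D22 (5.51%). It had 3.60, 2.44 and 4.32 FPKM at D6, 1.3, 1.63 and 0.947 FPKM at D16, 1.47, 1.39 and 1.91 FPKM at D22 and 2.98, 1.36 and 2.03 FPKM at D28. The differences from 14.5 dpp were -1.07 at D16 and -0.89 at D22, each with an SE of 0.21 (limma, adjusted p = 0.00386 and 0.00851), and both calls were lost without either 14.5 dpp library. At D28 no axoneme gene was called lower, against 6% of all tested genes, and Tekt3 differed by -0.64.

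Within the culture, no change of an axoneme gene was called. Of the 8 genes that could be tested between D6 and D28, limma called none in either direction, against 4.69% of all tested genes, and 1 had an unadjusted p-value under 0.05. The differences ran from -0.52 ± 0.23 for Tekt3 to 0.26 ± 0.15 for Dnaaf1. Of the 25 genes, 18 had a mean under 0.5 FPKM at D28 and 7 were at 0 in all 12 cultured libraries, where this scale leaves little room for a change. Whether this course differed from that in vivo was tested by setting the change from 14.5 to 36.5 dpp against the change from D6 to D28 in 1 fit. With 23 genes tested, 22 had a larger rise in vivo (adjusted p-value no higher than 0.05 and a contrast of 1 or more on the log2 scale), against 19.2% of all tested genes. Of the 23, 13 passed the filter through 36.5 dpp only, so that they entered the test by being high in vivo. Among called genes above 0 in every library of the 4 groups, the contrasts ran from 2.60 ± 0.11 for Dnah1 to 7.60 ± 0.39 for Tekt1. Ccdc39 fell short with a contrast of 0.85 ± 0.33 (adjusted p = 0.0373).

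**Figure D5:**
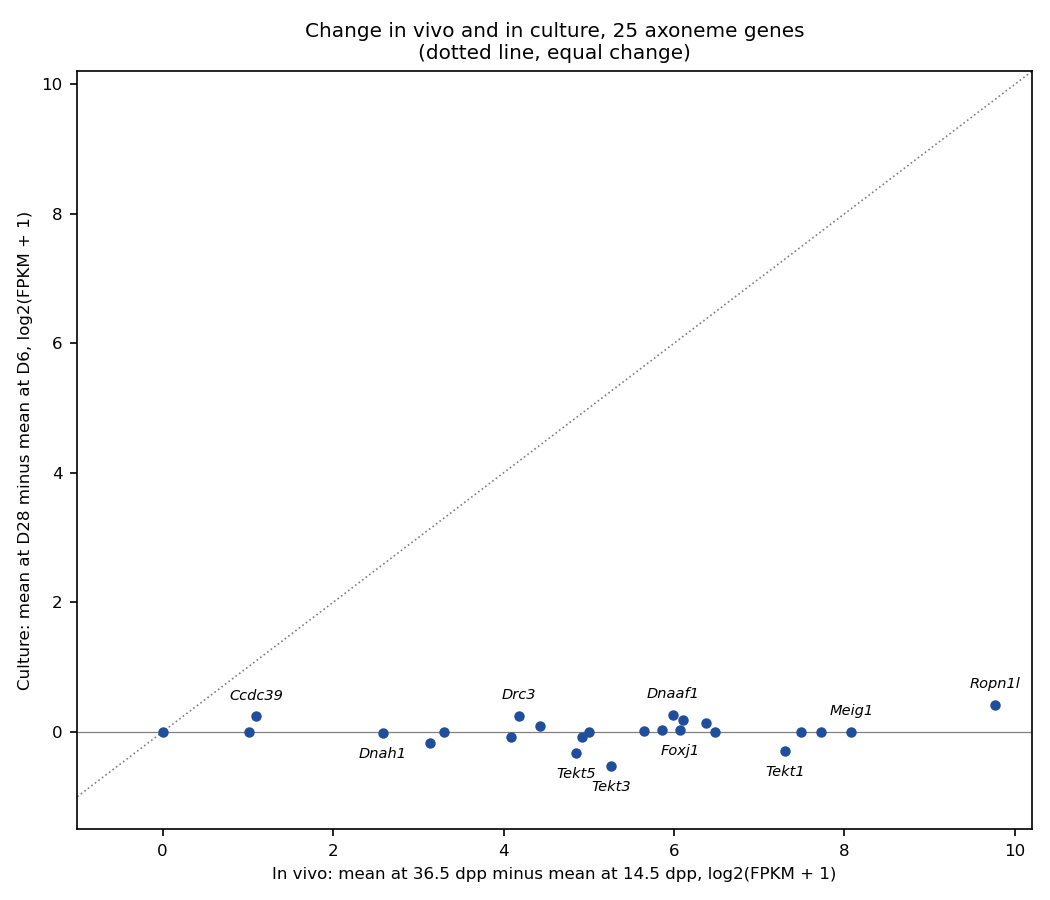
Change of the 25 axoneme genes in vivo (horizontal axis, mean at 36.5 dpp minus mean at 14.5 dpp) against the change in culture (vertical axis, mean at D28 minus mean at D6), both in log2(FPKM + 1), with a dotted line of equal change. The points spread from 0 to 9.77 along the horizontal axis and keep between -0.52 and 0.42 on the vertical one.

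The explants were also compared with the 8.5 dpp testis from which they came, a comparison chosen after the values were seen. At D28, 3 of the 25 genes were called higher, against 13.2% of all tested genes, and 1 was called lower, against 10.5%. The filter left 9 of the 25 (2 through D28 only and 2 through 8.5 dpp only). Of the called genes, Dnai2 passed through D28 only and Tekt5 through 8.5 dpp only, so each could be called only in the direction found. Dnaaf1 was higher by 2.10 ± 0.13 on the log2 scale (limma, adjusted p = 4.32e-05), Dnai2 by 1.34 ± 0.09 (adjusted p = 5.28e-05) and Drc3 by 1.33 ± 0.30 (adjusted p = 0.00877). The call of Drc3 was lost with a pseudocount of 0.1. Dnaaf1 and Dnai2, with Ccdc39, were also the genes called higher at 14.5 dpp in vivo. Tekt5 fell by 1.57 ± 0.10 (adjusted p = 4.13e-05). It had 0.616, 0.643 and 0.823 FPKM at D6, 0.315, 0.344 and 0.26 FPKM at D16, 0.565, 0.49 and 0.239 FPKM at D22 and 0.261, 0.346 and 0.45 FPKM at D28, in all cases below the 3 testes of 8.5 dpp. Its fall in the explants was therefore of the size of that seen in vivo between 8.5 and 14.5 dpp, which shares the 8.5 dpp testes.

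Foxj1, Tekt1 and Tekt4 stood near the juvenile testes in culture. Foxj1 had 0.269 to 0.598 FPKM over the 12 explant libraries, with a median of 0.425 FPKM, overlapping the 8.5 dpp testes (0.331 to 0.593 FPKM) and lying below both 14.5 dpp testes. Tekt1 had 0.566 to 2.59 FPKM, with a median of 1.5 FPKM, and its D28 libraries (0.779, 1.59 and 0.566 FPKM) overlapped the 14.5 dpp testes (0.498 and 1.87 FPKM). Tekt4 was listed at 0 in 7 of the 12 and did not exceed 0.131 FPKM.

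Other genes of the pathway were followed as lists of known components. Of 33 other axoneme genes, 29 were called higher at 24.5 than at 14.5 dpp and none lower, against 14.6% of all tested genes called higher. The median difference was 2.27 on the log2 scale over the 32 tested, beside -0.18 for all tested genes. How many of them entered the test through the older age alone was not counted. Dynlrb2, a dynein light chain of the roadblock family, rose by 5.75 ± 0.26 (limma, adjusted p = 0.000209), and Zmynd10, a factor for arm assembly, by 5.26 ± 0.30 (adjusted p = 0.000238). At D28, 29 of the 33 were called lower than at 36.5 dpp, against 23.6% of all tested genes. Among them was Cfap206, a protein at the base of a radial spoke (-7.87 ± 0.10, adjusted p = 6.25e-09). How many of the 29 passed the filter through 36.5 dpp alone was not counted, and such genes could only have been lower. Against the 8.5 dpp testis, 4 of the 16 tested were called higher at D28 (Dnajb13, Mns1, Ak7 and Dnaaf6; 13.2% of all tested genes) and 2 lower, among them Cfap206 (10.5% of all tested genes). Here too, passes through a single group were not counted. Mns1 and Dnajb13 were among the 4 already called higher at 14.5 dpp (8.83% of all tested genes), with 1.64 ± 0.15 (adjusted p = 0.00377) and 1.24 ± 0.18 (adjusted p = 0.00705).

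Genes of intraflagellar transport, the cargo system that builds cilia, were expressed from the youngest age. Of 22 measured, 19 were called higher at 24.5 than at 14.5 dpp, against 14.6% of all tested genes. Only 1 (Kif3b, a motor subunit) was called higher at 30.5 than at 24.5 dpp on the deposited scale, against 13.5%. The median difference of the 22 at this step was 0.19 on the log2 scale, beside -0.39 for all tested genes. After rescaling, the calls of a higher level over all genes went from 1553 to 2360, and the calls of this list were not counted on that scale. Of these 22, 20 were called lower at D28 than at 36.5 dpp, against 23.6% of all tested genes. The median difference was -2.25 on the log2 scale, beside -5.76 for the 23 tested axoneme genes and 0.64 for all tested genes. Every one of the 22 passed the filter in the comparison of 14.5 with 8.5 dpp, in contrast to 10 of the 25 axoneme genes. Whether the lists differ was not tested.

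Among the regulators of cilia and spermatid genes, Rfx2, a factor needed for spermiogenesis, was called higher at 14.5, 24.5 and 30.5 dpp than at the age before. It had 0.592 to 0.922 FPKM at 8.5 dpp, 1.54 and 2.24 FPKM at 14.5 dpp and 49.6, 52.5 and 33.3 FPKM at 24.5 dpp (3.98 ± 0.24 on the log2 scale, limma, adjusted p = 0.00028). From 30.5 dpp on it had 110 to 133 FPKM, and in the explants 0.895 to 1.4 FPKM. Mybl1, a master factor of pachytene spermatocytes, rose at 24.5 dpp (2.34 ± 0.16, adjusted p = 0.000358), while Rfx1 and Rfx3 were not called until 30.5 dpp. Rfx2 was therefore at 33.3 FPKM or more at 24.5 dpp, when Foxj1 was at about 5 FPKM. Crem gave erratic values within a group, such as 25.8, 8.42 and 1.20 FPKM at 30.5 dpp.

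Marker sums of germ cell stages and of other cells are given beside the axoneme genes, and their part in the results was not tested. The 5 round spermatid markers summed to 3.90 to 7.06 FPKM up to 14.5 dpp, 34.9 to 50.6 FPKM at 24.5 dpp, 701 to 775 FPKM at 36.5 dpp and 2.76 to 4.83 FPKM in the explants. The sum at 24.5 dpp came from Acr (16.7 to 31.5 FPKM), Spaca1 (11.9 to 12.5 FPKM) and Spata18 (4.94 to 5.96 FPKM). At that age Acrv1 had at most 0.227 FPKM and Tssk1b 0.941 to 1.07 FPKM, beside 0.569 and 1.33 FPKM of Tssk1b at 14.5 dpp. In the explants most of the sum was Spaca1, with 2.26 to 4.23 FPKM. The 5 markers of elongating spermatids summed to 3.21 and 29.1 FPKM in the 14.5 dpp testes and to 3.97 to 4.76 FPKM at 24.5 dpp. They reached 266 to 1295 FPKM at 30.5 dpp and at most 6.99 FPKM in the explants, where Prm1 was listed at 0 in all 12 libraries. Of the 6 markers of multiciliated cells of ducts and ependyma, 3 were measured (Deup1, Ccno and Foxn4). Their sum was 0.428 to 0.555 FPKM at 8.5 dpp, 14.9 to 27.1 FPKM at 24.5 dpp, 159 to 174 FPKM at 53.5 dpp and 0.712 to 1.68 FPKM in the explants. The rise came from Deup1 and Ccno, with 120 to 131 and 37.6 to 44.7 FPKM at 53.5 dpp. Foxn4 had 0.4 and 0.833 FPKM at 14.5 dpp and 0.507 to 0.558 FPKM at 53.5 dpp. Which cells held Deup1 and Ccno was not tested, so the sum is no measure of duct or ependymal cells. The 6 spermatocyte markers summed to 778 to 802 FPKM at 24.5 dpp, to less at the later ages (405 to 472 FPKM at 30.5 dpp and 169 to 209 FPKM at 53.5 dpp), and to 9.31 to 46.3 FPKM in culture, compared with 14.7 and 80.0 FPKM in the 14.5 dpp testes. The 5 Sertoli cell markers summed to 932 to 1057 FPKM at D6 and 3057 to 3833 FPKM at D28, and of the 5 only Clu, a secreted chaperone, was called higher at D28 than at D6 (2.62 ± 0.14 on the log2 scale, limma, adjusted p = 0.000572), the median difference of the 5 being -0.09.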

How the data were processed

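RNA of 30 libraries was sequenced by the authors as stranded, poly-A selected 50 bp single reads, aligned with STAR 2.5.2a to the rn6 genome with RefSeq models, and quantified with StringTie. The authors deposited 1 table of FPKM for 17322 genes named by Entrez Gene identifiers (the study calls these values RPKM), normalized to transcript length and mapped reads. Symbols came from a RefSeq table (GRCr8), which held 17172 of the identifiers. The labels gave the groups, and 1 testis of 14.5 dpp, labelled an outlier and listed at 0 for all genes, was not used.

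FPKM were transformed to log2(FPKM + 1), and genes whose median reached 0.5 FPKM in either group were fitted over the whole table by limma 3.58.1 (lmFit, eBayes; R 4.3.3). P-values were adjusted by Benjamini-Hochberg over all tested genes. Calls needed an adjusted p-value no higher than 0.05 and group medians 2-fold apart or more (for the contrast of changes, 1 or more on the log2 scale). For D16, D22 and D28 against 14.5 dpp, 1 fit with an F test gave the p-value of the call. The tests were checked on simulated data. Tables and figures were made with Python 3.11.15, numpy 2.4.6, pandas 2.3.3 and matplotlib 3.10.9. Depth was unknown, since only FPKM were used. The members and lists were chosen with earlier results of these data known. Every member may be named, values of every library or their range were given for paralogues, Foxj1, Meig1 and the genes with the largest rises or the highest levels at D28, and other genes come from fixed lists. Testes of the same age came from different rats. Each cultured pool held fragments of several juvenile males, and the RNA sets of a time were isolated independently.

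Alternatives changed the pseudocount, the filter, the fold, the scaling, the groups in the fit, the prior variance and the replicate block, and left out each library in turn.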

Additional observations from a re-analysis of the deposited data

Results flagged for a closer look

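The change in vivo from 14.5 to 36.5 dpp and the change in culture from D6 to D28 differed by a test of the difference itself for 22 axoneme genes, all with the larger rise in vivo (limma, adjusted p-value no higher than 0.05, contrast of 1 or more on the log2 scale). Among all tested genes, 19.2% were called with the larger rise in vivo. Of the 23 genes tested, 13 passed the filter through 36.5 dpp only and so could enter only by being high in vivo. The count was 22 or 23 when each library was left out.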

How the results depend on the processing

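The counts of axoneme genes called at 24.5 against 14.5 dpp (20), D16 against 24.5 dpp (20), D28 against 36.5 dpp (23) and 53.5 against 36.5 dpp (1) were the same without any single library. The count for 36.5 against 30.5 dpp (2) ranged from 0 to 5 when libraries were left out, and was 1 with the fold taken on the log2 scale and 4 in 1 fit of all 10 groups. Over all genes that comparison had 846 calls and from 8 to 1192 with a library left out. The count for D6 against 14.5 dpp (2) ranged from 0 to 2 with a library left out, was 1 with a pseudocount of 0.1, without the filter, with the fold on the log2 scale or with a mean-variance trend, and was 0 with a replicate block (376 calls over all genes instead of 898). With the fold on the log2 scale the counts were 2 instead of 4 for 14.5 against 8.5 dpp, and 1 instead of 3 and 2 for D22 and D28 against 14.5 dpp. After median-of-ratios rescaling the count for 53.5 against 36.5 dpp was 2 instead of 1. None of these counts was reversed. The median difference of the axoneme genes turned from -0.22 to 0.15 at 53.5 against 36.5 dpp, from -0.05 to 0.11 at D16 against 14.5 dpp and from -0.10 to 0.04 at D28 against 14.5 dpp after rescaling. Without the filter it turned from 0.08 to -0.07 at D6 and from 0.12 to -0.07 at D22 against 14.5 dpp, and from -0.07 to 0.02 at D28 against D6. With the block it was 0.05 at D16 against 14.5 dpp. The cause of these changes was not tested.

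Replicate numbers did not pair the libraries: the correlation of deviations between same-numbered libraries ran from -0.14 to 0.213 over 21 pairs of groups, and in none of the 13 with 3 pairs was every value over 0.1. Besides D6 against 14.5 dpp, the block lost Dnai2 at 14.5 against 8.5 dpp (adjusted p = 0.0832) and Tekt2 at 36.5 against 30.5 dpp, and gained Ropn1 at 30.5 against 24.5 dpp and at 36.5 against 30.5 dpp. Rescaling moved the median of all tested genes at D28 against 36.5 dpp from 0.64 to 0.01, and that of the axoneme genes from -5.76 to -6.33. The share of higher among all called genes moved with rescaling from 56.2% to 40.5% at 14.5 against 8.5 dpp, from 34.7% to 80.3% at 30.5 against 24.5 dpp, from 84% to 96.6% at 36.5 against 30.5 dpp and from 36.7% to 87.6% at 53.5 against 36.5 dpp. It moved from 64.8% to 49.6% at D22 against 30.5 dpp, from 66.4% to 48.3% at D28 against 36.5 dpp and from 33.3% to 55.9% for the contrast of changes. Comparisons with 14.5 dpp rest on 2 testes, values of 0 can be failed estimates, and reads per gene were unknown.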
